A study of Mus musculus with 40 samples.

Results

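The major urinary proteins (MUPs) are small secreted carrier proteins encoded by a cluster of closely related genes on mouse chromosome 4. Here 10 genes of the family, Mup1, Mup2, Mup3, Mup7, Mup9, Mup10, Mup12, Mup17, Mup20 and Mup21, were taken by their symbols from the 32544 gene rows of a liver count table. The same table held 11 further numbered Mup rows and 27 Mup pseudogene rows. All 10 members had enough counts to be tested.

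The livers came from male C57BL/6 mice that were germ-free, that is, raised without microbes, and 64 days old. For 6 weeks they had received delta-valerobetaine (VB), a trimethylated compound that gut bacteria make, or vehicle, on a Western or a control diet, and RNA-seq reads were counted per gene. The 4 groups, of 5 mice each, were Western diet with VB, Western diet with vehicle, control diet with VB and control diet with vehicle. Strain, sex, age and the germ-free state were the same in all groups. Total counts per mouse, summed over 2 sequencing lanes, ran from 16315342 to 24566686. Hepatocyte markers were abundant in every mouse, with a summed level of 40585 to 52543 counts per 1000000 counts (CPM) in Western diet VB mice, 48451 to 55934 CPM in Western diet vehicle mice, 64096 to 69698 CPM for VB on the control diet and 53155 to 63832 CPM for vehicle on the control diet. These sums use unscaled counts, so they also depend on the share of counts that other genes take. In whole liver, fewer cells of a type and less RNA per cell cannot be told apart.

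MUPs belong to the lipocalins, barrel-shaped proteins that hold small hydrophobic molecules. The adult male mouse liver makes most of them, releases them into the blood and loses them through the kidney into urine, where they bind and slowly release volatile pheromones. Their transcription in liver is known to depend on the male, pulsed pattern of growth hormone, which acts through the receptor GHR, the kinase JAK2 and the transcription factor STAT5B, and on glucocorticoid and thyroid hormone. Mup20 encodes darcin, a male pheromone protein that attracts females, and Mup1 has been described in mice as a circulating protein that affects glucose metabolism.

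The members lie between bases 60066469 and 62150863 of chromosome 4 (GRCm38), all on the minus strand. Mup7, Mup2, Mup9, Mup1, Mup10, Mup12 and Mup17 stand in this order in the central block of the cluster. Coding sequences of these 7 genes were 98.7% to 99.6% identical over their 21 pairs. Mup20 (62050234 to 62054158), Mup3 (62083476 to 62087342) and Mup21 (62147932 to 62150863) close the cluster, and were 83.8% to 91.0% identical to the 7 others. This likeness limits what a single row can show. Of the 50-base words of a Mup2 transcript, 0% were absent from all other Mup genes, against 3.65% for Mup7, 5.24% for Mup1, 13.8% for Mup10, 21.9% for Mup17, 49.9% for Mup20, 80.7% for Mup21 and 84.4% for Mup3. The treatment of shared reads is not given in the sources used here. The level of a single near-identical copy is therefore uncertain, and the sum over copies is given first.

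The upstream sequences of 3 members are shown because these members behaved differently: Mup17 had the largest log2 rise of the 10 with VB on the Western diet, Mup10 a change near 0, and Mup3 stands for the diverged end of the cluster. Each runs 5′ to 3′ on the minus strand and ends at the element TATATAAGG, in capitals, which lies 2 to 21 bases before the RefSeq transcript start (RefSeq, GRCm38.p6).
Mup17, chr4:61595849-61596082: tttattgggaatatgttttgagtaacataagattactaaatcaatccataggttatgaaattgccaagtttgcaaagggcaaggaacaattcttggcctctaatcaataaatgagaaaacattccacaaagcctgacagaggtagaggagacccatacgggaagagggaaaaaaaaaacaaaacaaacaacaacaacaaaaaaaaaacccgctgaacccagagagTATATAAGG
Mup10, chr4:60582177-60582405: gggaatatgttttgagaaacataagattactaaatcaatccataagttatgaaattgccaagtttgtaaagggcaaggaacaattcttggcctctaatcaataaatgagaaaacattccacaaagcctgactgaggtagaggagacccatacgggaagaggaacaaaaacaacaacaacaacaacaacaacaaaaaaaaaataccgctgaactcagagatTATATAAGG
Mup3, chr4:62087320-62087567: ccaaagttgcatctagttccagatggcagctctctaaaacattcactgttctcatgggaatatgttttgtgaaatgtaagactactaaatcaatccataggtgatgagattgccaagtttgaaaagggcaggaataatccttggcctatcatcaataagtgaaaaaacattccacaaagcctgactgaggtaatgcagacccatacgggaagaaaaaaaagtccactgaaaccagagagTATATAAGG
The RefSeq starts differ from the GENCODE gene ends, 61595871 for Mup17, 60582199 for Mup10 and 62087342 for Mup3. By GENCODE the element therefore lies inside each of these 3 genes. RefSeq promoter windows, from 250 bases before to 50 bases after the start, were found for 7 of the 10 members. TATATAAGG, searched on both strands, was present in 6 of these 7, all but Mup7, and in 0.34% of all 27025 promoter windows. The form TTCNNNGAA, the palindrome that STAT5 binds, was present in 0 of the 7 within this window and in 8.47% of all windows. Over the 200 bases before the element, Mup17 was 93.5% identical to Mup10 and 74.0% identical to Mup3.

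The 10 members together took a larger share of liver RNA in Western diet VB mice than in any other group. Their summed counts made up 11.1%, 13.96%, 9.65%, 10.1% and 13.7% of all counts in the 5 Western diet VB mice, against 6.12%, 6.69%, 7.51%, 7.91% and 6.62% in the 5 Western diet vehicle mice. Every Western diet VB mouse lay above every Western diet vehicle mouse. The means were 11.7% ± 2.00 with VB and 6.97% ± 0.724 with vehicle (SD, n = 5 each), a difference of 4.73 percentage points, or 1.68-fold.

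On the control diet the difference ran the other way. The share was 4.46%, 4.73%, 5.12%, 5.45% and 6.74% in control diet VB mice, against 9.03%, 6.56%, 7.67%, 6.02% and 7.82% in control diet vehicle mice. The ranges overlapped, since VB mouse 5 lay above vehicle mice 2 and 4. The means were 5.30% ± 0.892 with VB and 7.42% ± 1.17 with vehicle (SD, n = 5 each), a difference of -2.12 percentage points.

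Between the diets, vehicle mice differed by -0.45 percentage points (6.97% on Western diet, 7.42% on control diet), with overlapping ranges. VB mice differed by 6.40 percentage points (11.7% on Western diet, 5.30% on control diet), with no overlap. The 5 highest shares among the 20 mice were those of the 5 Western diet VB mice, and the highest mouse had 3.13 times the share of the lowest.

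**Figure D1:**
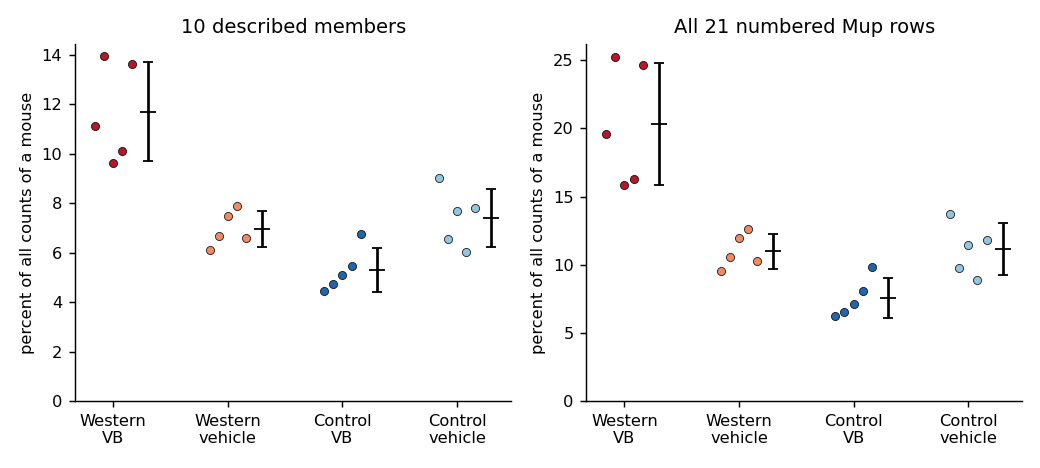
Percent of all counts of a mouse (y axis, from 0) taken by the 10 described members (left) and by all 21 numbered Mup rows (right) in the 4 groups of 5 mice. Points are mice, and the bar beside them is the mean with its SD. Western diet VB mice, from 9.65% to 13.96% on the left, stand above all other mice, and control diet VB mice have the lowest mean, 5.30%.

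Summed into a single row and scaled with all other genes, the members differed by 0.85 on the log2 scale (SE 0.16) between VB and vehicle on the Western diet, by -0.56 (SE 0.16) between VB and vehicle on the control diet, and by 1.38 (SE 0.16) between Western and control diet in VB mice. Of the 11 numbered rows outside the 10 members, 8 rose and none fell with VB on the Western diet, with a median log2 change of 1.24. All 11 rose on the Western relative to the control diet in VB mice. Of all genes tested, 3.33% and 3.23% rose in these comparisons, in that order. With VB on the control diet none of the 11 was called in edgeR's test, while 5 had an unadjusted p under 0.05, beside 1354 of all 12616 genes tested. All 21 numbered rows together took 15.8% to 25.2% of counts in the Western diet VB mice, against 9.53% to 12.7% in the vehicle mice of that diet. On the control diet they took 7.57% ± 1.44 with VB and 11.1% ± 1.90 with vehicle (SD, n = 5 each). Pseudogene rows took at most 0.0101% of counts in any mouse.

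The rise with VB on the Western diet was uneven over the members. Mup7 gained 2.65 percentage points of all counts, which was 56.1% of the gain of the 10. Mup17 gave 14.04% of it and Mup20 11.9%. Mup10 took 2.23% ± 0.189 of counts with VB and 2.37% ± 0.243 with vehicle on the Western diet (SD, n = 5 each), and added nothing to the gain. The make-up of the member counts differed accordingly. Mup7 was 39.3% ± 1.14 of member counts with VB and 27.9% ± 1.66 with vehicle on the Western diet, and Mup10 was 19.4% ± 2.71 with VB and 34.1% ± 2.07 with vehicle. Mup7 was the largest member row in all 5 Western diet VB mice, and Mup10 in all 5 Western diet vehicle mice.

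**Figure D2:**
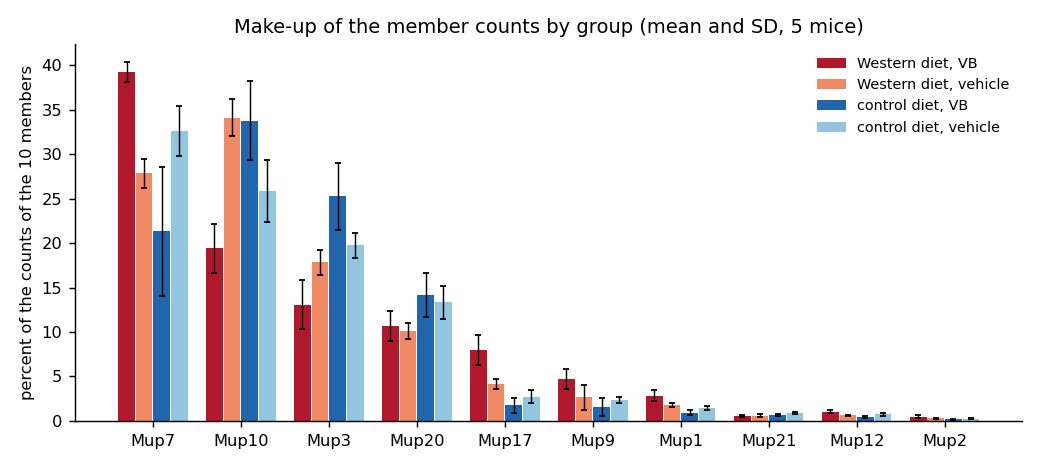
Share of the summed counts of the 10 members (y axis, percent) that each member row takes (x axis, in order of level per length), by group. Bars are means of 5 mice with the SD. Mup7 makes up 39.3% in Western diet VB mice and 21.3% in control diet VB mice, while Mup10 makes up 19.4% and 33.8% in the same groups.

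Per kilobase of annotated exon, the mean level over the 20 mice was highest for Mup7 (25473 CPM per kb), followed by Mup10 (15038 CPM per kb), Mup3 (12982 CPM per kb), Mup20 (10190 CPM per kb) and Mup17 (4438 CPM per kb). Mup9, Mup1, Mup21 and Mup12 had mean levels of 1767, 1042, 785.7 and 688.5 CPM per kb. Mup2 was lowest, at 205.3 CPM per kb. Neighbours in this order were not apart in all groups: in Western diet vehicle mice Mup7 averaged 19282 ± 4112 CPM per kb and Mup10 17518 ± 3940 CPM per kb (SD, n = 5), and in control diet VB mice Mup10 averaged 11784 ± 1200 CPM per kb and Mup3 11409 ± 655 CPM per kb.

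Tested row by row, 7 of the 10 members rose with VB on the Western diet and none fell (edgeR's quasi-likelihood test, Benjamini-Hochberg adjusted p under 0.05 over all 12616 genes tested). In this comparison 3.33% of all genes rose and 3.86% fell, 7.19% in all. The median log2 change was 1.46 over the 10 members and -0.02 over all genes tested. In 4 members every VB mouse lay above every vehicle mouse, which was so for 2.59% of all genes. Mup9 was called by a narrow margin: without single mice its adjusted p ran from 0.00253 to 0.073, and the call was lost on leaving out, each in turn, Western diet VB mouse 2 or 5 or Western diet vehicle mouse 1, 2, 4 or 5.

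Among the near-identical copies Mup7 had 48580.4, 62191, 39169.6, 42497 and 60030.1 CPM in Western diet VB mice, against 15475.5, 19148, 22053, 26069 and 16846 CPM in Western diet vehicle mice. The lowest VB mouse was above the highest vehicle mouse. The log2 change was 1.34 (SE 0.27, adjusted p = 0.00424 in edgeR's test), or 2.54-fold.

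Mup17 had 9339, 15010.1, 6756, 6829 and 14728 CPM in Western diet VB mice, against 2126, 2952, 3598, 4132 and 2238 CPM in Western diet vehicle mice. VB mice 2 and 5 were the highest and no VB mouse reached down to the vehicle range. It rose by 1.81 on the log2 scale (SE 0.41, adjusted p = 0.0118 in edgeR's test), or 3.50-fold.

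Mup1 had 3275, 5352.5, 2385, 2490.1 and 5394 CPM in Western diet VB mice, against 1289.7, 1231, 1371.5, 1537 and 938.8 CPM in Western diet vehicle mice. Its ranges did not overlap either, and VB mice 2 and 5 were again the highest. The log2 change was 1.57 (SE 0.31, adjusted p = 0.00435). Mup12 also showed no overlap, and averaged 1359.6 ± 451.8 CPM with VB and 447.6 ± 65.2 CPM with vehicle (SD, n = 5 each), a log2 change of 1.60 (SE 0.29, adjusted p = 0.00201). Mup2 and Mup9 rose by 1.68 (SE 0.33, adjusted p = 0.0037) and 1.73 (SE 0.46, adjusted p = 0.0278) on the log2 scale, with overlapping ranges.

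The Mup2 row is the least certain. Its counts differed up to 2.69-fold between the 2 lanes of a single library, with 2401 counts in lane 1 and 883 in lane 2 of Western diet vehicle mouse 5, whose lanes held 8466016 and 8368144 counts in all. In 7 of the 20 mice its lanes differed over 1.2-fold. Only 1 other member, Mup12, passed that limit, in 1 mouse at 1.23-fold. The summed member share differed by 0.0112 to 0.102 percentage points between lanes.

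Mup10 did not change detectably with VB on the Western diet. It had 24413, 27575, 19859.5, 26305 and 24418 CPM in Western diet VB mice, against 21775, 22716, 22535, 34072 and 20742 CPM in Western diet vehicle mice. The groups overlapped, and the highest value was that of vehicle mouse 4. The log2 change was 0.01 (SE 0.12, adjusted p = 0.983). Without vehicle mouse 4 it was 0.16 (SE 0.09, adjusted p = 0.29).

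In the diverged end of the cluster 1 of the 3 members rose. This was Mup20, the darcin gene, which had 15647, 16581, 8318, 10677 and 18545 CPM in Western diet VB mice, against 5857, 5853, 7381, 10276 and 6798 CPM in Western diet vehicle mice. The ranges met only through vehicle mouse 4, which was above VB mouse 3. Mup20 rose by 0.95 on the log2 scale (SE 0.21, adjusted p = 0.00812), or 1.93-fold.

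Mup3 had 16098, 17022, 14163, 19065 and 15472 CPM in Western diet VB mice, against 11372, 12245, 11258, 17127 and 11439 CPM in Western diet vehicle mice. Again only vehicle mouse 4 lay inside the VB range. The log2 change of Mup3 was 0.37 (SE 0.12, adjusted p = 0.0667) with all mice and 0.50 (SE 0.10, adjusted p = 0.00313) without vehicle mouse 4. Mup21 averaged 719.2 ± 216.7 CPM with VB and 427.0 ± 146.4 CPM with vehicle (SD, n = 5 each), a log2 change of 0.75 (SE 0.24, adjusted p = 0.0643), and 0.95 (adjusted p = 0.025) without that mouse. Mup21 also passed without Western diet VB mouse 3 (adjusted p = 0.0432). Western diet vehicle mouse 4 also had 4.62% of its counts in mitochondrially encoded genes, against 1.99% to 3.33% in the 19 other mice, and the part of this in the Mup3, Mup10 and Mup21 values was not tested.

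**Figure D3:**
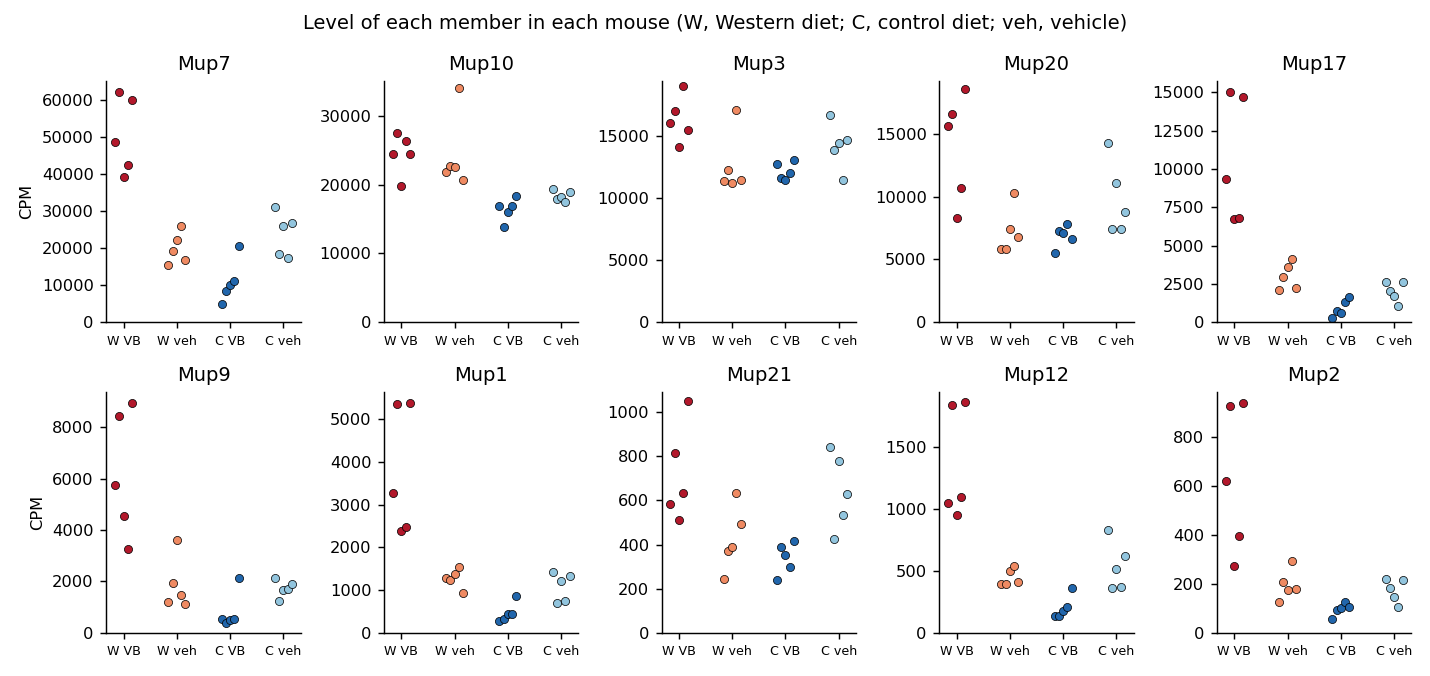
CPM (y axis, from 0) of each member in each mouse, 1 panel per member and 4 groups of 5 mice per panel. Western diet VB mice are highest for Mup7, Mup17, Mup1 and Mup12 with no overlap with Western diet vehicle mice. The single high vehicle point for Mup10, at 34072 CPM, and for Mup3, at 17127 CPM, is Western diet vehicle mouse 4.

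With VB on the control diet all 10 members had lower fitted levels than with vehicle, and none passed the adjusted threshold in edgeR's test. In that comparison 0.151% of all genes were called, 0.0951% as lower and 0.0555% as higher. At an unadjusted p under 0.05 there were 8 of the 10, beside 1354 of all 12616 genes tested. DESeq2 called 4 members, beside 164 genes in all, and limma-voom 1 member, beside 40 genes in all. The median log2 change was -1.0 over the members and 0.00 over all genes tested.

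Mup12 had 134.4, 135.4, 176.5, 210.0 and 359.3 CPM in control diet VB mice, against 829.5, 361.9, 517.9, 367.5 and 623.1 CPM in control diet vehicle mice. The groups did not overlap, by a margin of few CPM between VB mouse 5 and vehicle mouse 2. Its log2 change was -1.41 (SE 0.29, adjusted p = 0.0522). Mup21 was the other member without overlap, as were 2.01% of all genes in this direction, with 339.0 ± 70.0 CPM in control diet VB mice and 642.4 ± 170.9 CPM in control diet vehicle mice (SD, n = 5 each) and a log2 change of -0.92 (SE 0.24, adjusted p = 0.117).

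Mup7 had 4935, 8500.4, 9895, 11030.4 and 20534 CPM in control diet VB mice, against 31124, 18324, 25817.5, 17282 and 26764 CPM in control diet vehicle mice. Only VB mouse 5 lay within the vehicle range. The log2 change was -1.12 (SE 0.27, adjusted p = 0.0925). Mup10 and Mup3, which moved least on the Western diet, had log2 changes of -0.17 (SE 0.12, adjusted p = 0.658) and -0.22 (SE 0.12, adjusted p = 0.524) here. Control diet VB mouse 5 had the highest member share of its group. Without it 4 members fell: Mup1 by 1.57, Mup7 by 1.47, Mup9 by 1.81 and Mup12 by 1.72 on the log2 scale (adjusted p = 0.0343, 0.0088, 0.0359 and 0.0088). On leaving out, each in turn, control diet vehicle mouse 2 or 4 or Western diet VB mouse 2, 3 or 5, whose spread enters the shared fit, 1 member fell, Mup12.

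The effect of VB differed between the diets. In the test of the difference itself, the Western diet effect minus the control diet effect, 9 of 10 members were higher and none lower, beside 3.63% of all genes higher and 4.01% lower (7.64% in all). The differences on the log2 scale were 3.01 for Mup12 (SE 0.40, adjusted p = 0.000283), 2.79 for Mup1 (SE 0.44, adjusted p = 0.000853) and 2.46 for Mup7 (SE 0.38, adjusted p = 0.000651). They were 1.46 for Mup20 (SE 0.30, adjusted p = 0.00439) and 1.68 for Mup21 (SE 0.34, adjusted p = 0.00469). Mup3 passed narrowly, at 0.59 (SE 0.17, adjusted p = 0.0339), and without single mice its adjusted p ran from 0.00145 to 0.0752. That call was lost in 11 of the 20 such fits, those without Western diet VB mouse 2 or 4, Western diet vehicle mouse 1, 2, 3 or 5, control diet VB mouse 2, 3 or 4, or control diet vehicle mouse 1 or 3. Mup10 was the member not called, at 0.18 (SE 0.17, adjusted p = 0.634).

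**Figure D4:**
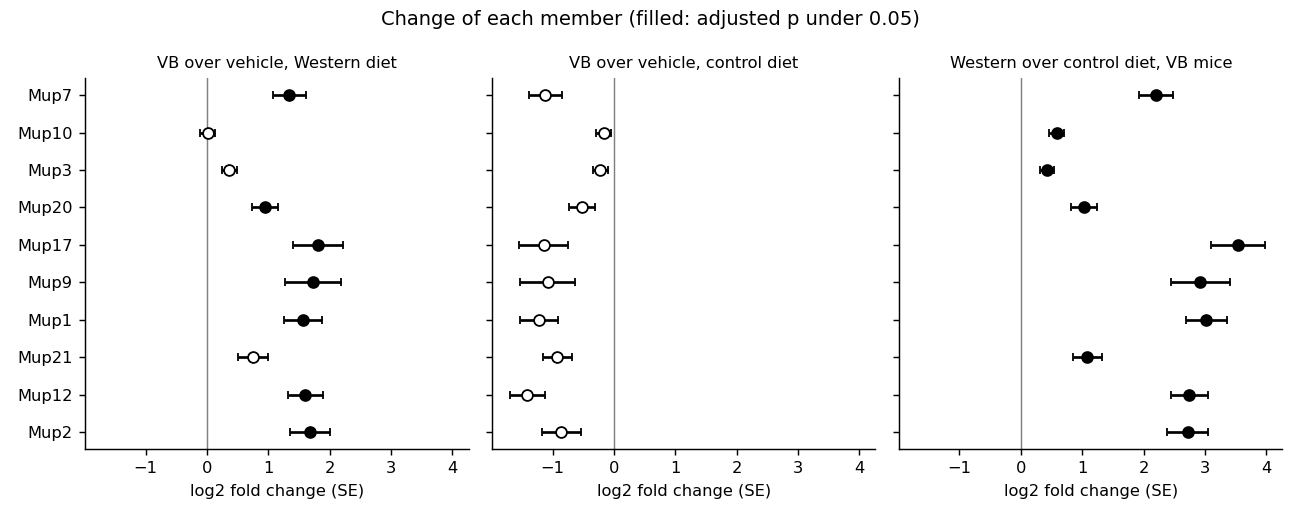
Log2 fold change (x axis, same scale in all panels) of each member (y axis) with its SE as bars, for VB over vehicle on the Western diet, VB over vehicle on the control diet, and Western over control diet in VB mice. Filled points have an adjusted p under 0.05, which holds for 7, 0 and 10 members. All points lie right of 0 in the outer panels and left of 0 in the middle one, with Mup10 and Mup3 nearest to 0 in the first 2 panels.

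In VB mice all 10 members rose on the Western relative to the control diet, beside 3.23% of all genes that rose and 3.22% that fell (6.44% in all), and no member's ranges overlapped, as for 4.95% of all genes in this direction. The median log2 change was 2.46 over the members and 0.00 over all genes tested. Mup17 had the largest value: its 5 control diet VB mice had 258.4, 751.4, 582.4, 1330.3 and 1617 CPM, well under the Western diet VB values given above, and it rose by 3.54 on the log2 scale (SE 0.44, adjusted p = 6.61e-05), or 11.6-fold. Mup1 rose by 3.02 (SE 0.33, adjusted p = 8.97e-06), Mup7 by 2.20 (SE 0.28, adjusted p = 3.74e-05) and Mup20 by 1.03 (SE 0.21, adjusted p = 0.00476).

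Mup10 and Mup3 also rose in this comparison, by 0.58 (SE 0.12, adjusted p = 0.00494) and 0.43 (SE 0.12, adjusted p = 0.0346). The Mup3 call was lost in 7 of the 20 fits that left out a mouse, those without Western diet VB mouse 1, 2 or 4 or without control diet VB mouse 1, 2, 3 or 4, at adjusted p = 0.0524 to 0.0944. Because the Western diet VB group enters this comparison and the one with Western diet vehicle mice, both share these mice.

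In vehicle mice 1 of the 10 members was called between the diets. Mup10 was higher on the Western diet, beside 8.92% of all genes that rose and 7.59% that fell (16.5% in all). Its ranges did not overlap, as for 6.45% of all genes in this direction. It averaged 24368 ± 5480.3 CPM on the Western and 18399.5 ± 788.1 CPM on the control diet (SD, n = 5 each), with a log2 change of 0.41 (SE 0.12, adjusted p = 0.0245). The call was lost without Western diet vehicle mouse 4 (log2 change 0.24, adjusted p = 0.0733) and without control diet vehicle mouse 2, 3 or 4. Without Western diet vehicle mouse 4, Mup3 and Mup21 were called as lower instead, at -0.31 (adjusted p = 0.0284) and -0.79 (adjusted p = 0.0359). The median log2 change over the members was -0.02.

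Within the groups the members did not vary as a single unit. After the group means were removed, the correlation of log2 CPM over the 20 mice ranged from 0.0509 for Mup3 with Mup9 to 0.947 for Mup1 with Mup12, with a median of 0.612 over the 45 pairs. These correlations are descriptions, since the mice share groups and near-identical rows share reads.

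Genes of the growth hormone signal path were next set beside the members. None of the 17 genes of this list was called with VB on the Western diet in edgeR's test, where 5 had an unadjusted p under 0.05, nor with VB on the control diet, where 2 had. Of all 12616 genes tested, 2560 and 1354 had such a p in these comparisons. DESeq2 called 1 of the 17, Cish, as lower in the Western diet comparison and none in the control diet comparison. From this list limma-voom called none in either. Ghr, the receptor gene, averaged 559.3 ± 16.3 CPM with VB and 562.2 ± 37.1 CPM with vehicle on the Western diet (SD, n = 5 each). Stat5b, the transcription factor of this path in male liver, fell in vehicle mice on the Western relative to the control diet, to 30.4 ± 6.88 CPM, against 49.4 ± 5.24 CPM on the control diet (log2 change -0.70, SE 0.14, adjusted p = 0.00125). In VB mice Cish, a STAT5 target that dampens cytokine signals, fell to 3.39 ± 1.87 CPM on the Western diet, against 29.2 ± 19.4 CPM on the control diet (log2 change -3.07, SE 0.75, adjusted p = 0.0211), and Prlr, the prolactin receptor gene, fell by 0.94 (SE 0.24, adjusted p = 0.0207). Socs2, another STAT5 target and an inhibitor of growth hormone signals, was the list's only call in edgeR's test of the difference of the VB effects, at -3.14 (SE 0.87, adjusted p = 0.0348). For this difference DESeq2 called Socs2, Cish and Onecut1 as lower, and limma-voom called none of the list. Between the diets in VB mice DESeq2 also called Cish and Prlr as lower, while limma-voom called Prlr but not Cish.

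Of the other known regulators of Mup transcription, Nr3c1, the glucocorticoid receptor gene, averaged 45.6 ± 2.60 CPM with VB and 48.8 ± 5.45 CPM with vehicle on the Western diet (SD, n = 5 each), and was not called. In vehicle mice Ppara, the fatty acid receptor gene, rose on the Western relative to the control diet by 1.09 (SE 0.16, adjusted p = 3.83e-05), as did Nr1h4, the bile acid receptor gene, by 0.64 (SE 0.16, adjusted p = 0.00648), Cebpa by 0.33 (SE 0.10, adjusted p = 0.0205) and Nr3c1. Thra, a thyroid hormone receptor gene, fell by 0.53 (SE 0.17, adjusted p = 0.0322). In the difference of the VB effects Nr1h4, Ppara and Cebpa, a liver transcription factor gene, were lower, at -0.80 (SE 0.22, adjusted p = 0.0294), -0.77 (SE 0.22, adjusted p = 0.0339) and -0.48 (SE 0.14, adjusted p = 0.0353).

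Other genes known for higher expression in male liver moved in the direction of the members with VB on the Western diet. Of 20 such genes 13 rose and none fell, with a median log2 change of 0.92, beside 3.33% of all genes that rose. The list was chosen with earlier results of these data known. Serpina1e, a secreted protease inhibitor gene, rose by 2.25 (SE 0.40, adjusted p = 0.00201), Hsd3b5, a steroid dehydrogenase gene, by 1.38 (SE 0.22, adjusted p = 0.00088), and Elovl3, a fatty acid elongase gene, by 1.26 (SE 0.22, adjusted p = 0.00156). In vehicle mice 9 of these 20 fell on the Western relative to the control diet and none rose, beside 7.59% of all genes that fell. Elovl3 was at -2.32 there (SE 0.23, adjusted p = 4.86e-07 in edgeR's test), and no member fell. In VB mice 9 rose and none fell on the Western relative to the control diet, beside 3.23% of all genes that rose. In the difference of the VB effects 15 were higher, beside 3.63% of all genes. With VB on the control diet none was called in edgeR's test, and the median was -0.56. There 8 had an unadjusted p under 0.05, beside 1354 of all 12616 genes tested. DESeq2 called 3 as lower, beside 164 genes in all, and limma-voom 1 as lower, beside 40 genes in all. Of 12 female-biased genes 5 were tested. Cyp2b9 and Cyp2a4, both cytochrome P450 genes, fell with VB on the Western diet, beside 3.86% of all genes. The 3 others were not called, and 2 of the 5 had positive log2 changes. Cyp2b9 averaged 0.346 ± 0.484 CPM with VB, against 39.6 ± 22.4 CPM with vehicle (adjusted p = 0.00309 in edgeR's test), and limma-voom did not call it. Cyp2a4 was low in both groups, at 0.129 ± 0.148 CPM with VB and 1.39 ± 0.772 CPM with vehicle. In VB mice 4 of the 5 female-biased genes fell between the diets and none rose, beside 3.22% of all genes that fell. In vehicle mice 2 of them rose and none fell, beside 8.92% of all genes that rose, while 3 had negative log2 changes. With VB on the control diet edgeR and limma-voom called none, and DESeq2 called 2 as higher. In the difference of the VB effects 2 were lower, beside 4.01% of all genes.

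With VB on the Western diet, other lipocalins and other abundant secreted proteins did not rise together with the members. Of 10 tested lipocalins outside the family, 2 rose and 1 fell with VB on the Western diet, with a median log2 change of 0.00. Of all genes tested, 3.33% rose and 3.86% fell there. Apom, the carrier of sphingosine 1-phosphate in lipoproteins, rose by 0.72 (SE 0.12, adjusted p = 0.000919), and Orm3, an acute phase lipocalin gene, fell by 1.73 (SE 0.35, adjusted p = 0.00403). Of 22 abundant secreted liver proteins 2 rose and none fell, with a median of 0.04, and both, Serpina3k at 0.41 (SE 0.12, adjusted p = 0.0353) and Serpina1d at 0.23 (SE 0.07, adjusted p = 0.0353), are serine protease inhibitor genes. In VB mice 3 of the 10 lipocalins rose on the Western relative to the control diet and none fell, beside 3.23% of all genes that rose. Their median log2 change was 1.05, and 7 had an unadjusted p under 0.05. DESeq2 called 6 of these lipocalins as higher and limma-voom 4. Of the 22 secreted proteins none rose in VB mice between the diets and 1 fell. This was Alb, the albumin gene, at 15606 ± 2993 CPM on the Western and 22359 ± 1839 CPM on the control diet (log2 change -0.52, SE 0.14, adjusted p = 0.0275). Of the 5 marker genes of salivary and lacrimal glands, which also secrete MUPs, Smr3a and Bpifa2 had 0 counts in all 20 mice, and the 1 that rose with VB on the Western diet was Mup4, itself a Mup gene. Of 6 adipocyte markers Adipoq, Lep, Plin1 and Retn averaged under 1 CPM and were not tested, none of them at 0 in all mice. The other 2, Cfd and Car3, fell in that comparison and carried nearly all of the list's sum. This sum was 2340 to 3508 CPM in Western diet VB mice, against 3813 to 6365 CPM with vehicle. Since Adipoq, Lep, Plin1 and Retn were so low, it cannot be read as a level of adipocytes. In VB mice 2 of 6 stellate cell markers fell on the Western relative to the control diet and none rose, and the list summed to 64.7 to 179.2 CPM on the Western diet, against 204.3 to 241.4 CPM on the control diet, with no stellate marker at 0 in all mice. The part of these cell types in the Mup values was not tested. The sums of these marker lists use unscaled counts, so they also depend on the share that the Mup rows take.

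The genes most like the members in their pattern were sought among 11175 genes outside the family with a mean of at least 1 CPM, by the correlation of log2 CPM with the log2 member share over the 20 mice. The highest were Moxd1 (Pearson's r 0.927, Spearman's rho 0.913), Capn8 (0.925 and 0.950) and Klhl20 (0.906 and 0.920), followed by Ugt2b1, Cd4 and C9 with r of 0.881, 0.879 and 0.875. Without Western diet VB mice 2 and 5, the farthest from the median share, r was 0.787 to 0.921 for these 6 genes. After group means were removed it was 0.554 to 0.836. Moxd1, a monooxygenase-like gene that is also in the male-biased list, averaged 167.4 ± 156.3 CPM with VB and 5.71 ± 6.43 CPM with vehicle on the Western diet, and 0.566 ± 0.841 CPM with VB and 16.7 ± 19 CPM with vehicle on the control diet (SD, n = 5 each).

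Clock genes differed between the groups as well. The leading principal component of 21 clock genes was scaled to SD units and signed to rise with Arntl, the gene of the clock activator BMAL1. This clock score averaged -0.23 ± 0.42 with VB and -1.29 ± 0.13 with vehicle on the Western diet, and 0.22 ± 0.26 with VB and 1.30 ± 0.39 with vehicle on the control diet (SD, n = 5 each). The vehicle groups stood at opposite ends of the score, with member shares of 6.97% and 7.42%, while the VB groups stood near its middle, with 11.7% and 5.30%. Western diet VB mice 2 and 5 (scores 0.25 and 0.16) had shares of 13.96% and 13.7%. Mice 1, 3 and 4 of that group (-0.72, -0.37 and -0.46) had 11.1%, 9.65% and 10.1%. Control diet VB mice 4 and 5 had their group's highest scores, 0.56 and 0.41, and highest shares. In control diet vehicle mice the highest score, 1.78, went with 9.03% and the lowest, 0.84, with 6.02%. Western diet vehicle mice 1 and 4 both scored -1.20, at 6.12% and 7.91%. The relation was not tested. The labels give no time of collection.

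With the clock score as a covariate all 10 members were still called as higher on the Western diet in VB mice (log2 changes 0.51 to 4.22, adjusted p = 6.52e-09 to 0.0273 in edgeR's test). In the same fit none of the 10 was called for VB against vehicle on the Western diet. Their log2 changes were -0.22 to 0.63, against 0.01 to 1.81 without the score. None was called for the difference of the VB effects either, with log2 changes of -0.29 to 0.84, against 0.18 to 3.01 without the score. No member had an unadjusted p under 0.05 in either comparison. Few genes of any kind were called there: of all 12616 tested, 2 for VB on the Western diet, against 907 without the score. For the difference 1 gene was called, against 964. For diet in VB mice 615 genes were called, against 813. The median SE in that fit was 0.38 for the Western diet comparison, against 0.28 without the covariate. Since the score separated VB from vehicle mice on each diet, VB and clock state cannot be told apart within a diet here. The form of the library names followed diet, and any handling that followed them cannot be told apart from diet.

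**Figure D5:**
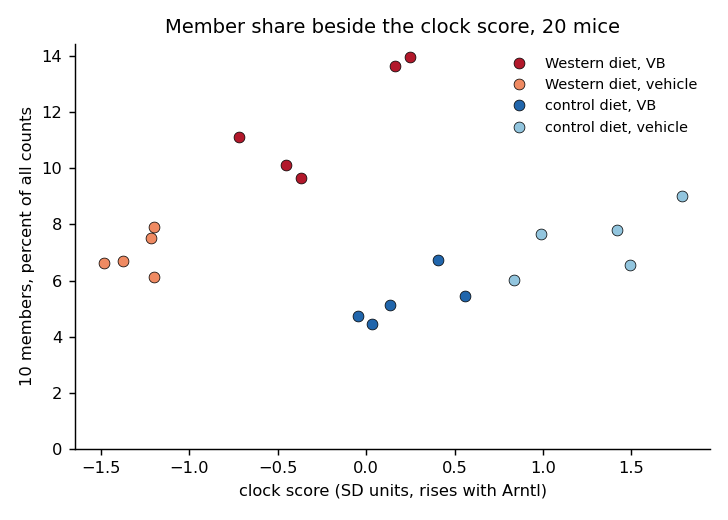
Summed share of the 10 members (y axis, percent of all counts, from 0) against the clock score (x axis, SD units) for the 20 mice, coloured by group. The VB groups lie near the middle of the score but apart in share, with Western diet VB mice at 9.65% or more and control diet VB mice at 6.74% or less. The vehicle groups lie at opposite ends of the score with overlapping shares. Within the Western diet VB group, mice 2 and 5 have the highest scores and the highest shares.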

How the data were processed

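Liver RNA of 20 mice was sequenced, with TruSeq libraries per the labels' protocols. The authors deposited whole-number read counts, not normalized, for 40 lanes and 32544 gene symbols. The submitters' processing notes name the build GRCm38. For the aligner, counter, annotation, strand setting and reads that match several genes, the setting is not given in the sources used here.

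Groups came from the sample titles. The 2 lanes of a library were summed to 1 replicate, after a check of their counts: the chi-square statistic divided by its degrees of freedom ran from 1.33 to 1.49 within mice, against 10.3 or more for pairs of mice. A lane of Western diet VB mouse 1 has a treatment field that says vehicle, while its title and library name say VB. It was kept as VB. P-values set a difference against the spread between mice. For rows with many counts that spread, not the counting error, sets the precision. In rows with few counts, such as Cyp2a4, counting error adds to it.

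R 4.3.3 was used with edgeR 4.0.16, limma 3.58.1 and DESeq2 1.42.0. Genes were kept by filterByExpr (minimum count 10, minimum total 15), which left 12616 genes with 99.95% of counts. Counts were TMM-scaled, all 20 mice were fitted with edgeR's robust quasi-likelihood model, and genes with a Benjamini-Hochberg adjusted p under 0.05 were called. CPM use TMM-scaled library sizes, and log2 CPM a prior count of 2. The exception is the cell type marker lists, whose summed CPM and means under 1 CPM use unscaled counts. The share is the percent of unscaled counts of a mouse. It has no p-value because the members and gene lists were chosen with earlier results of these data known. The rule for named genes takes all members, 6 genes of like pattern, and up to 5 called genes a list by smallest p, or the first 2 where fewer than 2 were called. The text gives part of the list genes, and 1 gene of the regulator list is not reported here. Positions and coding sequences come from GENCODE on GRCm38.

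Alternatives were RLE and upper-quartile scaling, Mup rows left out of library sizes, DESeq2, limma-voom, no filter, a fit to the compared groups alone, mouse number as a blocking factor, single lanes, the clock score as a covariate, summed rows, other denominators, medians, and each mouse left out.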

Additional observations from a re-analysis of the deposited data

Results flagged for a closer look

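Of 44 sets of 5 mice looked at (the member share and the 10 members, in 4 groups), 3 held a mouse far from the others by Dixon's criterion, where chance gives about 1 in 20. Western diet vehicle mouse 4 was high in its group for Mup3 (17127.3 CPM) and Mup10 (34071.9 CPM). Control diet VB mouse 5 was high in its group for Mup9, at 2118.2 CPM, against 377.5 to 553.8 CPM in the 4 other mice.

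The effect of VB differed between the Western and the control diet for 9 members by the test of the difference in edgeR. On the log2 scale the Western minus control diet difference of the VB effects was 2.79 for Mup1, 2.54 for Mup2, 0.59 for Mup3, 2.46 for Mup7, 2.81 for Mup9, 3.01 for Mup12, 2.95 for Mup17, 1.46 for Mup20 and 1.68 for Mup21.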

How the results depend on the processing

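With VB on the Western diet the number of members called was 6 to 9 under every setting but the clock score as a covariate, where it was 0, as it was for the difference of the VB effects. Of all genes tested, the clock score fit called 2 and 1 in these comparisons, in that order. In VB mice 10 members were called on the Western relative to the control diet under all settings that kept every mouse. With VB on the control diet 1 member was called with upper-quartile scaling, with Mup rows left out of library sizes, with limma-voom and on lane 2 only, and 4 with DESeq2. In vehicle mice the 1 call, Mup10, was lost with only the groups compared and with the clock score. With the score its log2 change was 0.972 (SE 0.394), against 0.405 without it. Of all genes tested, 28 were called between the diets in vehicle mice with the score, against 2083 without it. In the clock score fit all 10 members had positive log2 changes there, from 0.33 to 4.29, 6 had an unadjusted p under 0.05, and the median SE was 0.77, against 0.27 without the score. With 1 mouse left out the counts ran from 6 to 8, 0 to 4, 0 to 2, 9 to 10 and 8 to 9 (VB on Western diet, VB on control diet, diet in vehicle mice, diet in VB mice, difference). The share differences then ran from 4.17 to 5.25, -2.48 to -1.72, -0.80 to -0.05, 5.84 to 6.92 and 6.29 to 7.37 points. Over all numbered Mup rows the share differences were 9.30 points for VB on the Western diet, -3.57 on the control diet, 12.7 for diet in VB mice and 12.9 for the difference.

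Signs turned mostly with the clock score, where no turned value was called. With it Mup10 was at -0.22 for VB on the Western diet. For VB on the control diet Mup2 was at 0.27, Mup10 at 0.069, Mup17 at 0.34 and Mup20 at 0.034. For diet in vehicle mice Mup3 was at 0.33, Mup7 at 1.73, Mup12 at 2.58, Mup20 at 0.86 and Mup21 at 0.53. For the difference Mup10 was at -0.29 and Mup17 at -0.071. The cause was not tested. Mup9 was at -0.002 for diet in vehicle mice with limma-voom. With 1 mouse left out, Mup10 ran from -0.044 to 0.16 for VB on the Western diet, and for diet in vehicle mice Mup2 ran from -0.027 to 0.30 and Mup9 from -0.27 to 0.25.

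Mouse numbers were not taken to pair the mice, since the labels do not say so and 7 of 30 same-numbered pairs, not all, had deviations correlated over 0.1 (r from -0.07 to 0.38). That 10 of 20 mice correlated best with their own number is a hint from the data that the numbers may share something. With the replicate block the genes called with VB on the control diet were 65, against 19 without it. Among the members 1, Mup12, was called with VB on the control diet, and the other counts were 7, 1, 10 and 9 as without it. The limits are that the split of reads over near-identical copies is not known, that the spread between 5 mice a group sets which changes are called, and that clock state and VB cannot be told apart within a diet.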
